A study of Mus musculus with 9 samples.

Results

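Cytosolic ribosomal proteins are the protein components of the large (Rpl and Rplp genes) and small (Rps genes and Rpsa) ribosomal subunits. They were measured here in gastrocnemius, a calf muscle, of mice that differ in dystrophin and utrophin. The members were all probe sets whose single annotated gene symbol starts with Rpl or Rps followed by a digit, starts with Rplp, or is Rpsa. The Rps6k kinases, whose 3 probe sets share the prefix, and pseudogenes were left out. This gave 49 probe sets for 35 genes among 12422 probe sets that are not controls, of which those with 1 symbol name 8251 genes. The large subunit had 22 probe sets for 17 genes and the small subunit had 27 for 18 genes. A further 39 probe sets name a ribosomal protein together with another symbol and were not counted. Of the 49 probe sets, 34 for 29 genes had a mean level above the filter on dim probe sets, 18 of the large and 16 of the small subunit. The other 15, 4 large and 11 small, stayed out of every test.

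Each of the 9 mice had its own Affymetrix U74Av2 array. The groups were 2 wild-type mice of the mixed strain C57Bl/DBA2/129OLA-Ev at 7 weeks, 1 hDMD mouse at 11 weeks, 2 mdx mice at 15 and 13 weeks, 2 hDMD mdx mice at 24 and 10 weeks, 1 mdx utrn-/- mouse at 5 weeks and 1 hDMD mdx utrn-/- mouse at 9 weeks. All were male but wild-type 1, which was female, and for the mutant mice the sources used here name no strain. The mdx mice carry a mutation in Dmd, the mouse dystrophin gene, the utrn-/- mice lack utrophin, a relative of dystrophin, and the hDMD transgene is the human dystrophin gene in full length. With these labels, full-length dystrophin, mouse or human, was lacking in 3 mice (mdx and mdx utrn-/-) and carried by 6. Genotype and age cannot be told apart for the genotypes with 1 mouse.

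Each ribosome needs about equal numbers of its proteins, and cells hold the transcripts of these genes at high levels. Their mRNAs start with a run of pyrimidines at the cap, the 5′ terminal oligopyrimidine tract, through which growth signalling sets how well they are translated. In muscle, fibre growth is accompanied by the making of new ribosomes, and proliferating cells that enter a damaged muscle make many of them too.

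Runs of pyrimidines can be read in the sequences around the annotated starts of the genes that the results below turn on. They need not be the tract at the cap. The window searched ran from 50 bases before to 50 bases after the RefSeq start of each gene (GRCm38.p6), and 28 of the 35 genes had an entry. Shown are 30 bases on the gene's own strand, 5′ to 3′, with the longest run of C and T in that window in capitals. Relative to the annotated start, these runs began at -14 in Rpl7a, -37 in Rps24, 22 in Rps7 and 31 in Rpl6. They began at 32 in Rpl19, 11 in Rplp0, 40 in Rps4x and -21 in Rps28. Rpl7a and Rps24 have the longest of those shown. Rps7, Rpl6 and Rpl19 gave lower values on bright arrays. Rps28 gave the smallest p in the comparison by dystrophin, and Rplp0 and Rps4x were among the steadiest.
Rpl7a, chr2:26910789-26910818, + strand: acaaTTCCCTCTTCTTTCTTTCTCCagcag
Rps24, chr14:24490711-24490740, + strand: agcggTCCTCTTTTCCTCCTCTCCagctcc
Rps7, chr12:28635910-28635939, - strand: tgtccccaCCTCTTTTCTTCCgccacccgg
Rpl6, chr5:121204521-121204550, + strand: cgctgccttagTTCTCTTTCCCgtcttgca
Rpl19, chr11:98026944-98026973, + strand: gcggcccacaagCTCTTTCCTTTCgctgct
Rplp0, chr5:115559467-115559496, + strand: ggaccgcctggTTCTCCTataaaaggcaca
Rps4x, chrX:102189342-102189371, - strand: cgcgcagcctccgaccctaaTTTCTTCgtt
Rps28, chr17:33824567-33824596, - strand: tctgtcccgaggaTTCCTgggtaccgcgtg

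The longest run was 21 bases in Rpl7a and 5 in Rps28, and its median over the 28 genes was 10.5, against 7 over 17492 protein-coding genes with a promoter in the same table. A run of 8 or more was present in 20 of the 28 genes (71.4%) and in 39.2% of all. CTTTCC on the gene's own strand, which lies within such runs, was present in 11 (39.3%) against 5.12% of all. CGGAAG, read on either strand and therefore as CTTCCG too, which can overlap a run, was present in 13 (46.4%) against 13.5%. These matches describe the letters around annotated starts, which can differ from the starts used in muscle.

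Levels are given as log2(quantile normalised intensity + 16), on which 4 is the floor of an array that reads 0, and differences are on the same log2 scale and understate the change of dim probe sets. Probes differ in their response, so a higher level of one probe set than of another does not mean more transcript. Of 12 skeletal muscle markers 11 had a probe set that was kept, and 10 of the 11 had a mean level of 10 or more. Such a mean was reached by 1 of 14 kept markers of regenerating muscle, 1 of 11 of fibroblasts and 1 of 2 of blood. For 15 macrophage, 8 adipocyte and 6 lymphocyte markers the count was 0, and in this the tissue label fitted the arrays. A level above the floor in all 9 arrays tells less, as all 11 muscle and all 8 adipocyte markers had it. The arrays fell into 2 sets by the intensity of the spiked-in control RNAs. Their median was 206 to 225 in 3 arrays, called bright (wild-type 1, mdx 2 and hDMD mdx 1), and 28.5 to 42.3 in the other 6, called dim. The ratio of the 3′ to the 5′ actin control probe set, a sign of RNA length, ran from 1.20 to 1.87 for bright and from 0.669 to 0.908 for dim arrays. Each genotype with 2 mice holds 1 bright and 1 dim array. For Dmd, 1 probe set read from the floor to 4.95 over the 9 arrays, without separating the genotypes, and checks no label, since the part of the transcript it reads is not known here. The Utrn probe sets did not stand apart in the mice labelled utrn-/-: 92508_s_at read 5.64 and 5.28 there and 4.15 to 6.16 in the other 7, and 92507_at read 4.18 and 4.68 against 4.15 to 4.74. The labels utrn-/- therefore have no check in these values, and the comparison by utrophin rests on the labels alone.

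The 34 kept members fell into 21 with mean levels from 7.61 to 10.90, 10 large and 11 small subunit probe sets for 19 genes, and 13 with mean levels from 4.57 to 6.23. No kept member lay between, and the split at 7.5 used below was chosen after the levels were seen. Several genes had probe sets on both sides of it. For Rps24, which is mutated in some patients with Diamond-Blackfan anaemia, probe set 97696_r_at had a mean of 10.42 and 93121_at one of 5.06. Rpl19, a large subunit protein that reaches across to the small subunit, had 9.68 with 97483_at and 4.99 with 161961_at. At the floor in all 9 arrays were 3 probe sets, 93513_at of Rpl35a and 162229_at and 161654_r_at of Rps4x, while a further Rps4x probe set, 100780_at, read 9.59 to 9.90. For 6 genes no probe set was kept. Of these, Rps14, a core small subunit protein, was at the floor in 8 arrays and read 4.90 in hDMD mdx 2. Rps20 read from the floor in wild-type 1 and mdx 2 to 5.22 in the hDMD mdx utrn-/- mouse. Low readings of a probe set say nothing certain of the gene, and many ribosomal protein genes have near-identical processed copies that the probes may also read.

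**Figure D1:**
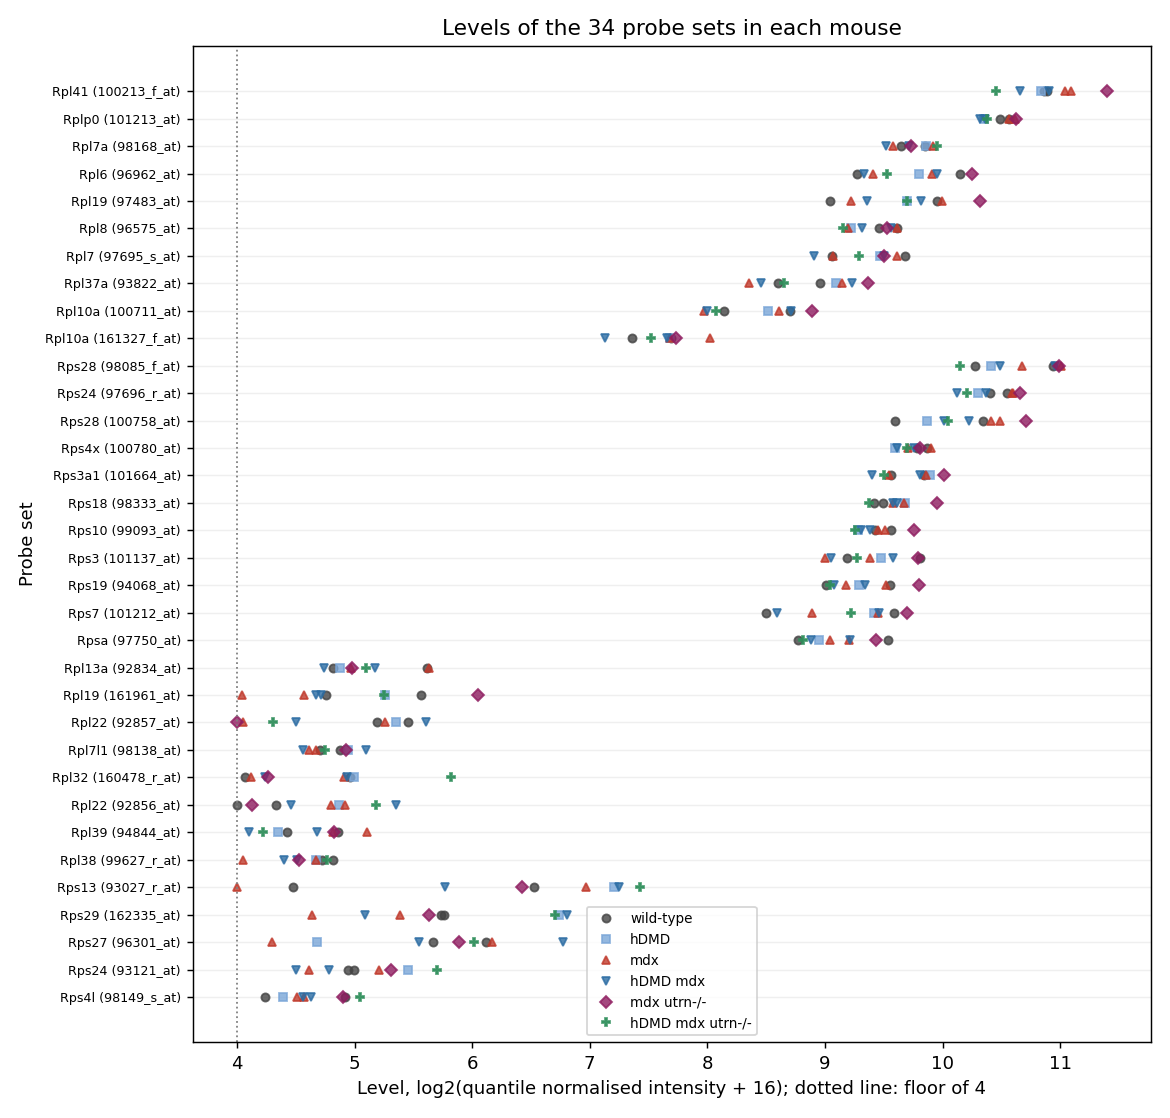
Level of the 34 kept probe sets in each of the 9 mice, on the log2(intensity + 16) scale, with 1 marker shape per genotype, the upper block holding the 21 probe sets with mean levels of 7.5 or more. In the upper block the widest range over the 9 mice is 1.27 log2 units (Rpl19, 97483_at). In the lower block Rps13, Rps27, Rps29 and Rpl19 (161961_at) spread over more than 2.

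The 21 probe sets with high levels varied little between mice. The SD over the 9 arrays had a median of 0.27 for them, against 0.33 for all 932 kept probe sets with a mean of 7.5 or more. The 13 dimmer members had a median SD of 0.47, against 0.44 for the 6521 dimmer probe sets in all. The smallest SD was that of Rps4x (100780_at), an X-linked small subunit gene, at 0.11. Rplp0, which forms the base of the stalk that recruits translation factors, had 0.12. Rpl7a had 0.15 and Rps10 had 0.16. Rplp0 read 10.49 and 10.57 in the wild-type mice, 10.35 in the hDMD mouse, 10.57 and 10.61 in the mdx mice, 10.32 and 10.36 in the hDMD mdx mice, 10.63 in the mdx utrn-/- and 10.38 in the hDMD mdx utrn-/- mouse. The 4 hDMD carriers held the 4 lowest values, and mdx 2 and the mdx utrn-/- mouse the highest.

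The largest SD was that of Rps13 (93027_r_at), at 1.24, with 4.48 and 6.53 in the wild-type mice, 7.21 in the hDMD mouse, 6.96 and the floor of 4 in the mdx mice, 5.77 and 7.25 in the hDMD mdx mice, 6.42 in the mdx utrn-/- and 7.43 in the hDMD mdx utrn-/- mouse. Its 3 lowest values were those of the 3 bright arrays. Rps29 (162335_at) had an SD of 0.77, and Rps27 (96301_at) one of 0.77. Both encode small zinc-binding proteins of the small subunit. Rpl22 (92857_at), a large subunit protein with a role in T cell development, had 0.64.

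The members differed between bright and dim arrays. In the 3 genotypes that hold both kinds of array, 18 of the 34 members were lower in the bright than in the dim mouse every time (52.9%; 26.8% of all 7453 kept probe sets). Higher every time were 5 (14.7%; 28.3% of all). All 3 bright arrays lay below all 6 dim ones for 9 members (12.1% of all probe sets) and above them for 2 (13.9% of all). The median difference, bright minus dim, was -0.25 over the members and 0.02 over all kept probe sets. With every array scaled to 1 trimmed mean in place of quantile normalisation, the median was -0.69 over the members and -0.03 over all, 23 members were lower and 2 higher every time, and the bright arrays lay below all dim ones for 16 members and above for 0. This comparison was added after the data were seen and has no test. The bright and dim mice of a genotype also differed in sex for wild-type. They differed in age for hDMD mdx (24 weeks bright, 10 weeks dim) and mdx (13 weeks bright, 15 weeks dim). The actin ratio was higher on every bright array. Brightness cannot be told apart from these here.

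The members lower in bright arrays, with all 3 below all 6, were Rps13, Rpl32, Rps7, Rpl19 (97483_at), Rpl37a, Rpl6, Rpl7, Rps3 and Rpl7a. Rps7, a small subunit protein that also binds the p53 regulator Mdm2, read 8.50, 8.89 and 8.59 on bright arrays and 9.22 to 9.70 on dim ones, a difference of -0.82. Rpl6 read 9.27, 9.41 and 9.33 against 9.53 to 10.25, a difference of -0.59. Rps3, which lines the channel where mRNA enters, differed by -0.47. The other way, Rpl13a, a large subunit protein that can leave the ribosome and repress inflammatory mRNAs, read 5.62, 5.63 and 5.18 against 4.74 to 5.10, a difference of 0.56. Rpl8 differed by 0.28. Both probe sets of Rps28, which sits where mRNA leaves the small subunit, were higher in the bright mouse of all 3 genotypes, with mean differences within genotypes of 0.49 (98085_f_at) and 0.34 (100758_at). Rplp0 gave -0.01, Rpl41 0.05 and Rps4x 0.10. Because each 2-mouse genotype holds 1 array of each kind, this gap is part of the replicate spread in every test below.

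**Figure D2:**
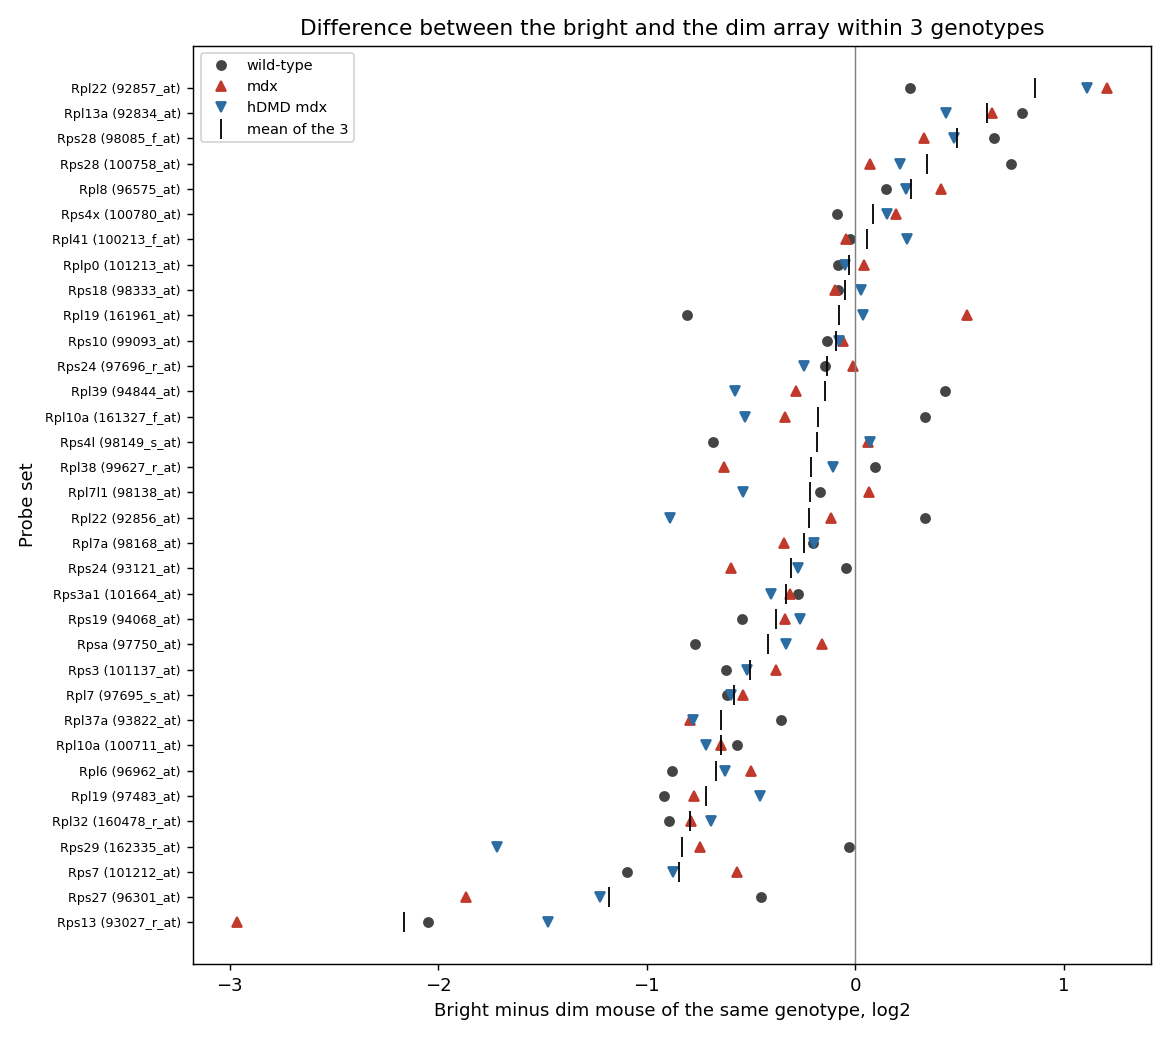
Difference between the bright and the dim mouse of the same genotype (log2) for the 34 kept probe sets, 1 marker for each of the 3 genotypes with both kinds of array and a bar for their mean, in order of that mean. For 18 probe sets all 3 markers lie below 0, from Rps13 at the bottom, and for 5 all lie above, among them both Rps28 probe sets.

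Across the mice, the median deviation of the members from their own means showed which arrays stood high or low. For the large subunit it was -0.10 and 0.09 in the wild-type mice, 0.11 in the hDMD mouse, 0.18 and -0.14 in the mdx mice, -0.26 and 0.07 in the hDMD mdx mice, 0.14 in the mdx utrn-/- mouse and -0.07 in the hDMD mdx utrn-/- mouse. For the small subunit it was, in the same order, -0.13 and 0.13, -0.07, 0.13 and -0.10, -0.22 and 0.01, 0.31, and -0.13. The 3 bright arrays were the 3 lowest for the large subunit. The mdx utrn-/- mouse, the youngest, was the highest for the small subunit, with 15 of 16 probe sets above their mean. Among the 21 probe sets with high levels, 20 were above their mean in the mdx utrn-/- mouse and 3 in the hDMD mdx utrn-/- mouse, both measured on dim arrays.

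**Figure D3:**
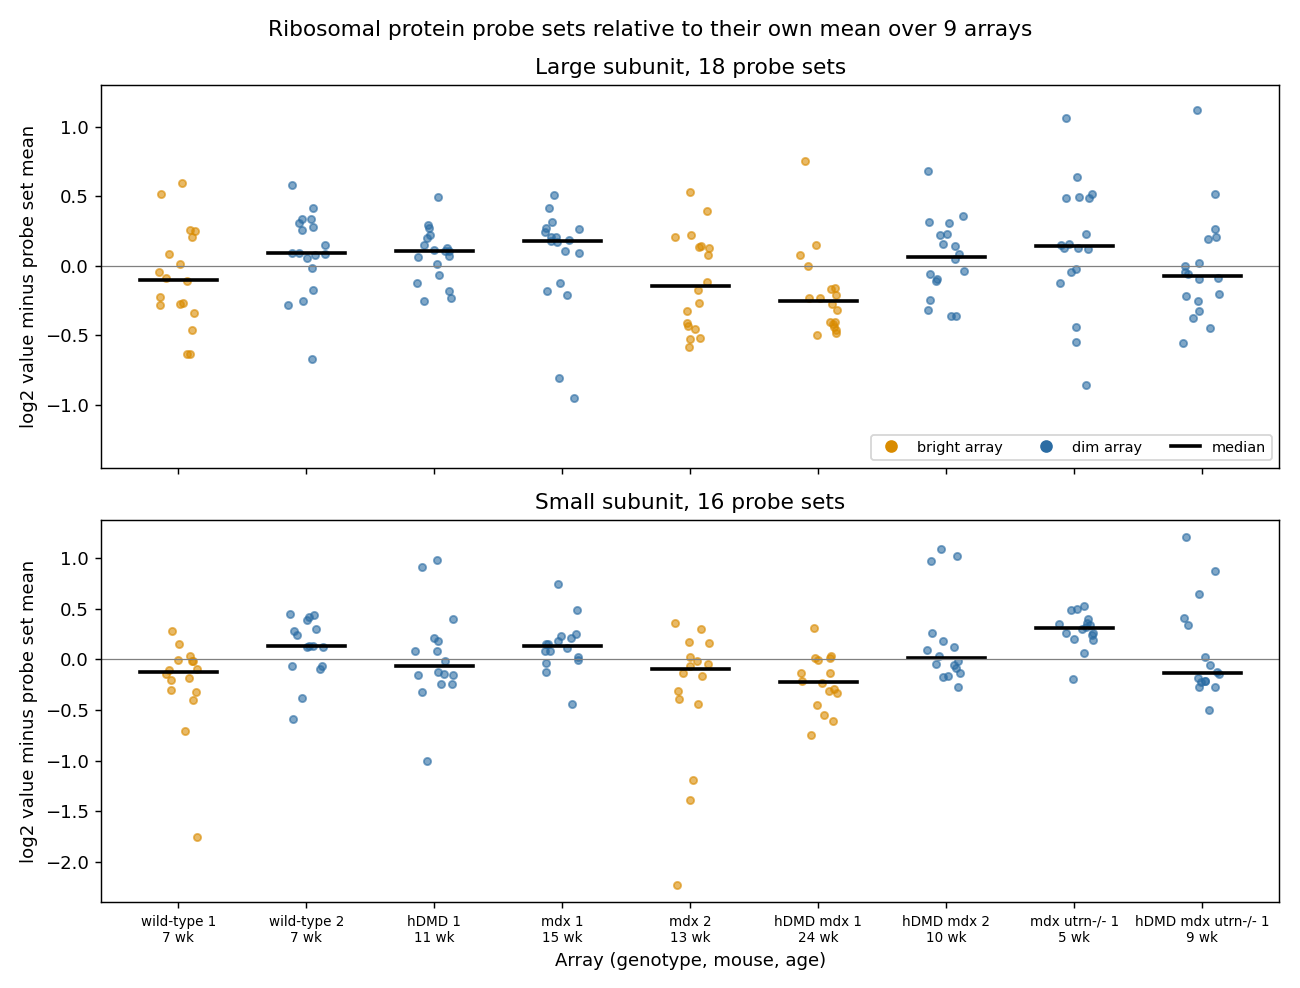
Deviation of each kept probe set from its own mean over the 9 arrays (log2), by array, for the large (upper) and small (lower) subunit, with ages in weeks (wk), bright arrays in orange, dim arrays in blue and the median as a black line. The mdx utrn-/- array has the highest small subunit median, 0.31, and the bright hDMD mdx 1 array the lowest of both subunits, -0.26 and -0.22.

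The first comparison asked whether ribosomal protein transcripts differ in muscle without full-length dystrophin. None of the 34 members passed the test in limma with Benjamini-Hochberg adjustment over all 7453 probe sets (0.121% of all passed), and 2 had an unadjusted p under 0.05 (5.58% of all). Higher in the 3 dystrophin-lacking mice were 22 of 34, 11 of 18 of the large subunit with a median difference of 0.10 and 11 of 16 of the small subunit with a median of 0.17. The median of all kept probe sets was -0.01. Of the 21 with high levels, 19 were higher and the median was 0.20. Without the mdx utrn-/- mouse these became 16 of 21 and 0.09, and in the other 16 alternatives they were 18 to 21 and 0.14 to 0.30. For bright arrays alone the median difference of the 21 was 0.09, and for dim arrays alone 0.25.

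The smallest p was that of Rps28. Probe set 100758_at read 10.34 and 9.59 in the wild-type mice, 9.87 in the hDMD mouse, 10.22 and 10.01 in the hDMD mdx mice and 10.04 in the hDMD mdx utrn-/- mouse, against 10.41 and 10.49 in the mdx mice and 10.71 in the mdx utrn-/- mouse. The groups did not overlap, with means of 10.54 ± 0.15 (SD, n = 3) and 10.01 ± 0.26 (SD, n = 6). The difference was 0.52 ± 0.22 (SE), with an adjusted p in limma of 0.869, and it was 0.20 among bright and 0.68 among dim arrays. The other kept Rps28 probe set, 98085_f_at, differed by 0.35 ± 0.24 (SE) and its groups overlapped. Rpl41, the smallest ribosomal protein, read 11.09, 11.04 and 11.40 without dystrophin and 10.46 to 10.91 with it, a difference of 0.41 ± 0.20 (SE) and an adjusted p of 0.958. Rps24 (97696_r_at) read 10.60, 10.59 and 10.66 against 10.13 to 10.55. For these 3 members all dystrophin-lacking arrays lay above all others (1.52% of all probe sets did so), and for 0 they lay below (1.42% of all).

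Rpl39, which lines the exit tunnel of the growing protein, was the other member among the 3 smallest p upward, at 0.48 ± 0.23 (SE), with overlapping groups. Downward, Rps29 (162335_at) read 5.39, 4.64 and 5.63 without dystrophin and 5.09 to 6.81 with it, a difference of -0.92 ± 0.41 (SE) and an adjusted p of 0.875. Its groups overlapped through the hDMD mdx 1 array, at 5.09. Rpl22 (92857_at) differed by -0.64 ± 0.37 (SE) and Rpl32 by -0.40 ± 0.36 (SE).

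Probe sets of 1 gene did not always differ alike. Rpl22 gave -0.64 with 92857_at and -0.09 with 92856_at. Rpl19 gave 0.25 with 97483_at and -0.15 with 161961_at, and Rps24 gave 0.29 with 97696_r_at and -0.02 with 93121_at.

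Other members with known roles beyond the ribosome differed less. Rps19, the gene most often mutated in Diamond-Blackfan anaemia, differed by 0.28 ± 0.22 (SE). Rpsa, also known as a laminin receptor, read 8.77 and 9.54 in the wild-type mice, 8.95 in the hDMD mouse, 9.20 and 9.04 in the mdx mice, 8.88 and 9.21 in the hDMD mdx mice, 9.44 in the mdx utrn-/- mouse and 8.81 in the hDMD mdx utrn-/- mouse, a difference of 0.20. Its highest value was that of a wild-type mouse and the groups overlapped. Rpl38, needed for the translation of Hox mRNAs, differed by -0.23, on levels of 4.05 to 4.82. Rplp0 differed by 0.19 and Rps4x by 0.09, and Rps7 by 0.22. Rps3 differed by -0.0043, and by 0.0080 with trimmed-mean scaling.

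The mdx mice were also compared with the wild-type mice, 2 each. None of the members passed (0.0% of all), and 0 had an unadjusted p under 0.05 (1.74% of all). Of 34, 16 were higher in mdx, with medians of -0.01 for the large and -0.01 for the small subunit. This count was 10 without wild-type 1, 24 without wild-type 2, 12 without mdx 1 and 24 without mdx 2, and 25 with age as a covariate. The mdx mice were older than both wild-type mice, so genotype and age cannot be told apart here either. The smallest p upward were those of Rpl22 (92856_at, 0.69 ± 0.40 SE), Rps28 (100758_at, 0.48 ± 0.37 SE) and Rpl10a (161327_f_at, 0.33 ± 0.36 SE). Downward they were Rpl19 (161961_at, -0.86 ± 0.40 SE), Rps29 (-0.73 ± 0.59 SE) and Rpl22 (92857_at, -0.67 ± 0.54 SE). The adjusted p was 1 for each of these in limma, and the Rpl22 probe sets gave opposite signs. The hDMD mouse against the wild-type mice likewise gave 0 members past the test (0.0% of all) and 0 at an unadjusted p under 0.05 (1.82% of all), with medians of 0.09 and -0.06 over all arrays and of -0.05 and -0.21 within the dim arrays. With trimmed-mean scaling the small subunit median was 0.31. Rpl22 (92856_at, 0.70 ± 0.49 SE), Rps29 (0.99 ± 0.72 SE) and Rps13 (1.71 ± 1.33 SE) had the smallest p upward, and Rps27 (-1.21 ± 0.84 SE), Rpl8 (-0.31 ± 0.41 SE) and Rpl13a (-0.35 ± 0.53 SE) downward.

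The third question was whether the members differ with the human dystrophin gene on deficient backgrounds. Between the 2 hDMD mdx and the 2 mdx mice, 0 members passed (0.0% of all) and 0 had an unadjusted p under 0.05 (2.88% of all). The medians were 0.01 for the large and -0.11 for the small subunit. Upward, the smallest p were those of Rps29 (0.93 ± 0.59 SE), Rps27 (0.93 ± 0.68 SE) and Rpl19 (161961_at, 0.38 ± 0.40 SE), and downward those of Rpl39 (-0.57 ± 0.37 SE), Rpl10a (161327_f_at, -0.46 ± 0.36 SE) and Rps24 (97696_r_at, -0.35 ± 0.32 SE). Each of the 6 had an adjusted p in limma of 0.99997. The same question over all 6 mice on mdx backgrounds, with utrophin genotype as a term, again gave 0 passes (0.0% of all) and 0 at an unadjusted p under 0.05 (5.49% of all). Lower with the human gene were 25 of 34 members, with medians of -0.17 and -0.22. All 21 of the probe sets with high levels were lower, with differences from -0.50 to -0.01 and a median of -0.25, where 48.4% of all kept probe sets were lower and their median was 0.02. None of these 21 had an unadjusted p under 0.05.

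The count of lower probe sets among these 21 was 17 with 1 utrn-/- mouse left out, whichever it was, with a median of -0.12. The utrophin term then takes up the other utrn-/- mouse, so both settings rest on the same 4 mdx and hDMD mdx mice. With age as a covariate the count was 19, with a median of -0.15, and over the other 11 alternatives it was 20 or 21. Among dim arrays the median was -0.31, and among bright ones -0.14. The comparison shares its 3 dystrophin-lacking mice with the comparison by dystrophin, so the directions are not independent. Rpl41 differed by -0.50 ± 0.28 (SE), with 11.09, 11.04 and 11.40 without and 10.91, 10.66 and 10.46 with the human gene. Rps28 (100758_at) differed by -0.44 ± 0.26 (SE) and Rpl39 by -0.58 ± 0.29 (SE). The adjusted p in limma was 0.979 for Rpl41 and Rps28 and 0.957 for Rpl39. Upward, Rps29 differed by 0.98 ± 0.47 (SE), Rps13 by 1.02 ± 0.74 (SE) and Rpl32 by 0.57 ± 0.42 (SE), 3 dim probe sets that were lower in bright arrays.

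**Figure D4:**
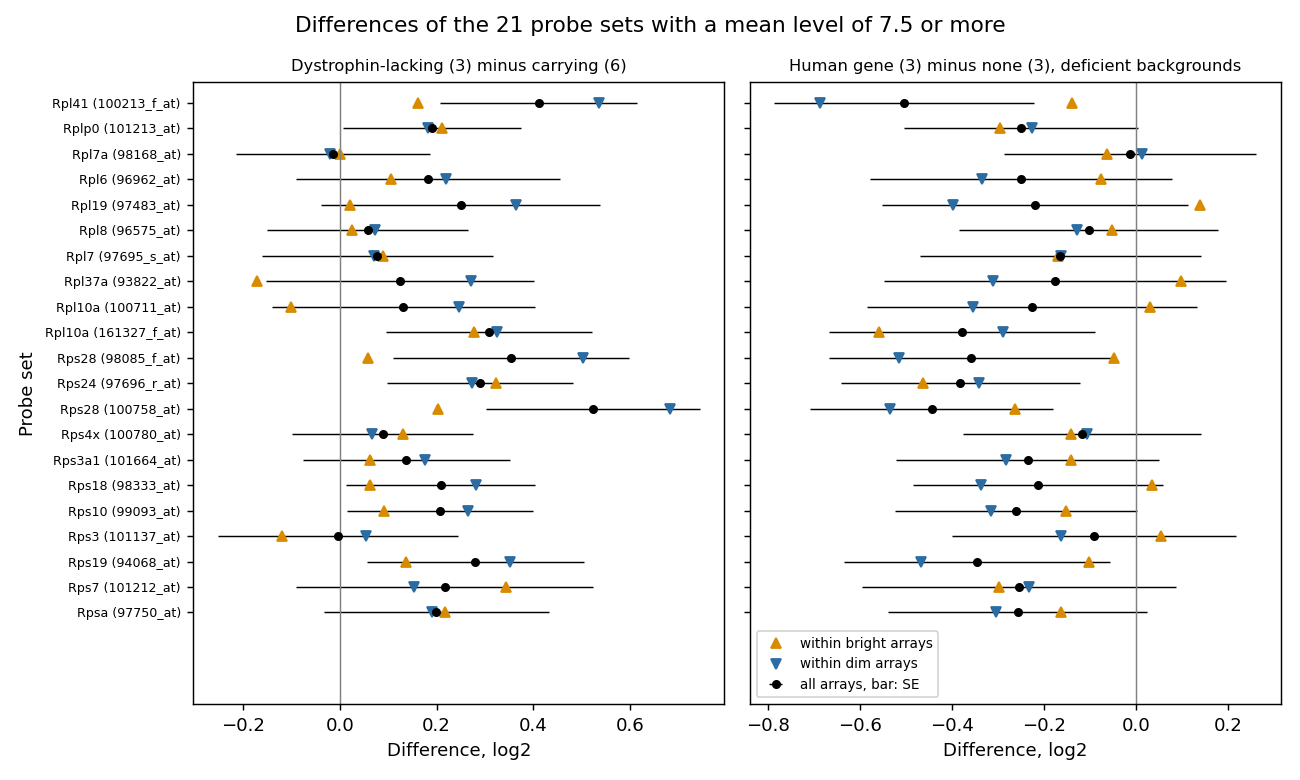
Differences (log2) of the 21 probe sets with mean levels of 7.5 or more, dystrophin-lacking minus carrying mice (left) and human gene minus none on deficient backgrounds (right), as black points with SE bars, with the difference within bright (orange) and within dim (blue) arrays. On the left 19 black points lie above 0 and on the right all 21 lie below, and none of the 21 passed the test in either comparison.

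The absence of utrophin was compared over the same 6 mice, 2 utrn-/- against 4, with the human gene as a term. None of the members passed between the mice labelled utrn-/- and the others (0.0% of all), and 1 had an unadjusted p under 0.05 (5.9% of all). This was Rpl19 (161961_at), with 6.05 and 5.25 in the utrn-/- mice against 4.04 and 4.57 in the mdx and 4.71 and 4.67 in the hDMD mdx mice, a difference of 1.15 ± 0.37 (SE) with an adjusted p in limma of 0.740. This is a dim probe set, and 97483_at of the same gene differed by 0.41 ± 0.35 (SE). Higher in utrn-/- mice were 28 of 34 members, with medians of 0.11 for the large and 0.12 for the small subunit. Of all kept probe sets 48.4% were higher, with a median of -0.02. The utrn-/- mice, at 5 and 9 weeks, were the youngest of the 6, so genotype and age cannot be told apart here. With age as a covariate 17 of 34 members were higher, with a median of 0.001 over the 34. Both utrn-/- arrays are dim, and within the dim arrays 18 of 34 were higher and the medians were 0.00 and 0.02. Without the mdx utrn-/- mouse 16 of 34 were higher. Rps24 (93121_at) differed by 0.73 ± 0.33 (SE) and Rps4l, a paralog of Rps4x, by 0.40 ± 0.27 (SE). Lower were both Rpl22 probe sets, 92857_at at -0.70 ± 0.46 (SE) and 92856_at at -0.23, and Rps28 (98085_f_at), at -0.21 but at 0.27 with trimmed-mean scaling.

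No member passed the test for any difference among the 6 genotypes (0 passed, 0.0% of all; 0 had an unadjusted p under 0.05, 2.95% of all). Whether the human gene's effect differed with and without utrophin was tested as an interaction, with 0 passes (0.0% of all) and 0 at an unadjusted p under 0.05 (3.84% of all). Its median was -0.09 for the large and -0.35 for the small subunit, and this rests on the single pair of utrn-/- mice. For the 6 comparisons above and the test of any difference, the number of members past the test was also 0 in each alternative. Alternatives of the interaction are not reported here. With array brightness as a block, the smallest adjusted p of a member by dystrophin in limma was 0.297. With at most 2 mice of a genotype, these counts of 0 do not show that the members did not differ.

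The genes that make and serve ribosomes did not pass the test by dystrophin either. Of 52 kept genes of ribosome biogenesis 28 were higher, with a median of 0.02. Of these 52, 0 passed (0.121% of all) and 3 had an unadjusted p under 0.05 (5.77%, against 5.58% of all). Tcof1, a nucleolar factor for the transcription of ribosomal RNA, differed by -1.11 ± 0.30 (SE) with an adjusted p in limma of 0.407. Rrp1b differed by 0.75 ± 0.27 (SE), Fbl, the methyltransferase that modifies ribosomal RNA, by 0.47 ± 0.27 (SE), and Utp14a by -0.53 ± 0.22 (SE). Of 30 initiation factors 16 were higher, with a median of 0.00, 0 passes and 1 unadjusted p under 0.05 (3.33%, against 5.58% of all). Eif1ax, at -0.54 ± 0.22 (SE), and Eif4ebp2, a repressor of cap-dependent translation, at -0.41 ± 0.23 (SE), led downward, and Eif1a (0.47 ± 0.33 SE) and Eif4e2 (0.32 ± 0.26 SE) upward.

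Elongation factors and further genes with a terminal pyrimidine tract numbered 14, of which 8 were higher, with a median of 0.06. There were 0 passes and 0 unadjusted p under 0.05 (5.58% of all). Eef1a1, which brings aminoacyl-tRNA to the ribosome, differed by 0.56 ± 0.35 (SE) and Naca by 0.22 ± 0.20 (SE), while Eef2, the translocase, differed by -0.20 ± 0.20 (SE) and Pabpc4 by -0.37 ± 0.19 (SE). Of 15 genes of growth signalling to the ribosome 7 were higher, with a median of -0.03 and 0 passes. Of the 15, 1 had an unadjusted p under 0.05 (6.67%, against 5.58% of all). Rps6kb2, an S6 kinase, differed by -0.79 ± 0.35 (SE) and Akt2 by -0.34 ± 0.21 (SE), against 0.41 ± 0.23 (SE) for Mxd4 and 0.43 ± 0.29 (SE) for Igf1r. Fau, whose product is cleaved to a small subunit protein, differed by 0.15 ± 0.23 (SE).

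The 59 kept genes for mitochondrial ribosomal proteins, which serve the separate ribosome of the organelle, had a median of 0.02 by dystrophin, with 34 higher. There were 0 passes and 0 unadjusted p under 0.05 (5.58% of all). Mrps25 differed by 0.58 ± 0.37 (SE) and Mrps16 by 0.33 ± 0.26 (SE), and Mrps10 by -0.49 ± 0.24 (SE) and Mrpl16 by -0.38 ± 0.20 (SE). In the utrophin comparison, where 28 of 34 cytosolic members were higher, 43 of these 59 were lower (51.6% of all kept probe sets), with a median of -0.19. Among dim arrays alone this median was -0.18, and there 18 of the 34 cytosolic members were higher. Again 0 passed, and 5 of the 59 had an unadjusted p under 0.05 (8.47%, against 5.9% of all). The difference between both kinds of ribosomal protein was not tested.

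Marker lists of other cells differed by dystrophin to unlike extents. All 15 kept macrophage markers were higher on average in the dystrophin-lacking mice, with a median difference of 1.09, and their summed intensity was 1326 to 2539 against 363 to 1953 in the others. Macrophage sums are set here beside the number of the 34 ribosomal members above their mean. Among dim arrays they were 2539 and 25 (mdx 1), 1953 and 24 (wild-type 2), and 1326 and 27 (mdx utrn-/-). The other dim arrays gave 577 and 18 (hDMD mdx 2), 443 and 20 (hDMD), and 405 and 12 (hDMD mdx utrn-/-). Bright arrays gave 1718 and 13 (mdx 2), 524 and 8 (hDMD mdx 1), and 363 and 10 (wild-type 1). How far both go together was not tested. All 14 kept markers of regenerating muscle were higher, with a median of 0.98 and summed intensities of 3184 to 4295 against 1368 to 2677. Of 11 fibroblast markers 9 were higher, with a median of 0.47, but their summed intensities overlapped, 3292 to 4136 against 2095 to 5931. Of 8 adipocyte markers 5 were higher, with a median of 0.01, and of 6 lymphocyte markers 1, with a median of -0.36. Both kept blood markers were higher, with a median of 0.39. Of the 11 kept skeletal muscle markers 2 were higher, with a median of -0.10. Their summed intensities overlapped, 23606 to 26167 against 24088 to 27354, and the lowest was that of the mdx utrn-/- mouse. In whole muscle, a change in the share of a cell type and a change in RNA per cell cannot be told apart, and the part of these cells in the ribosomal values was not tested.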

How the data were processed

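The authors deposited 1 intensity per probe set and array on a linear scale. No source used here gives the expression measure, the software or the scaling, and 19.4% to 29.9% of the values of an array were at or below 0, where only a bound is known. Per the labels' protocols, RNA extracted with Trizol and RNeasy was copied with SuperscriptII from a T7-dT24 primer and labelled with an Enzo kit, which favours the 3′ end of transcripts. Replicates are separate mice, at most 2 per genotype, and their number limits the precision.

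From these values, intensities below 0 were set to 0, quantile normalised over 12422 probe sets without the 66 controls, and transformed as log2(value + 16). Probe sets with means above the 40th percentile (7453) were tested with limma 3.58.1 (lmFit, contrasts.fit, eBayes) in R 4.3.3, two-sided, with Benjamini-Hochberg adjustment over all 7453 and a threshold of 0.05. The comparison by dystrophin used 1 mean per class over all 9 arrays. Others used 1 mean per genotype over all 9 arrays, with genotypes of 1 mouse assumed to vary like those of 2, or, for the human gene and utrophin, an additive model over 6 arrays. The fits were checked on simulated data with 200 probe sets changed. At a change of 1 log2 unit, 33% of these were called by dystrophin. For mdx against wild-type, hDMD mdx against mdx, the human gene and utrophin it was 0%. At 2 log2 units it was 79% by dystrophin, 47.5% for the human gene and 57% for utrophin. It was still 0% for mdx against wild-type and for hDMD mdx against mdx. A count of 0 passes therefore says little of differences of this size or smaller. Symbols came from the platform annotation (10833 probe sets with 1 symbol, 396 with several, 1193 unnamed), which can be old.

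Named are the 3 members with the smallest p in each direction per comparison, a set with known roles, the 4 with the largest and smallest SD, 3 genes whose probe sets differ most, and the 2 genes with the smallest p per direction of each other list. Of the set with known roles, Rplp1, Rplp2, Rpl3, Rpl3l, Rpl5, Rpl10, Rpl11, Rpl24, Rps6 and Rps27a had no probe set with a single symbol. Rpl6, Rpl7, Rpl35a and Rpl37a outside this rule were named after their values were seen. Members and lists were chosen with earlier results of these data known. Alternatives were trimmed-mean scaling (2% off each end), no filter, pseudocounts of 1 and 64, a mean-variance trend, array brightness as a block, dim arrays only, age as a covariate, each gene by its probe set of highest mean, and leaving out single mice. Promoter sequences are those of RefSeq (GRCm38.p6).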

Additional observations from a re-analysis of the deposited data

How the results depend on the processing

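The number of members past the test was 0 in each alternative of the 6 contrasts and of the test of any difference, which does not show that the members did not differ. Of 158 alternative values of the subunit medians, 148 moved by less than the SD between mice of one genotype (0.20 for the large and 0.17 for the small subunit) and 10 moved further. Each pair behind this SD holds 1 bright and 1 dim array, and a median could fall to 0.00 or change sign within it. For utrophin, the medians among dim arrays were 0.00 and 0.02 (from 0.11 and 0.12). The 148 therefore do not show that the medians were stable. With trimmed-mean scaling the small subunit median became 0.45 (from 0.12) for utrophin and 0.31 (from -0.06) for hDMD against wild-type, and without a filter it became -0.048 (from -0.22) for the human gene. Leaving out 1 mouse at a time gave large subunit medians of -0.22 (without wild-type 1) to 0.19 (without mdx 2) for mdx against wild-type, and of -0.26 (without hDMD mdx 2) to 0.15 for hDMD mdx against mdx. Small subunit medians ran from -0.21 (without wild-type 1) to 0.22 (without wild-type 2) for hDMD against wild-type and from -0.059 (without the mdx utrn-/- mouse) to 0.35 (without the hDMD mdx utrn-/- mouse) for utrophin. The cause was not tested.

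Of 53 differences of single members, 13 took the other sign in 32 of 763 alternative values, and none was called in any. By dystrophin, Rps3 became 0.008 with trimmed-mean scaling and 0.054 in dim arrays, Rps27 0.13 and Rps24 (93121_at) 0.028 in dim arrays. Among dim arrays Rpl13a became 0.055 for hDMD against wild-type. Rps29 became 0.056 for mdx against wild-type with age as a covariate. Rps28 (98085_f_at) became 0.27 with trimmed-mean scaling and 0.021 with age for utrophin. With mice left out 1 at a time, the differences by dystrophin ran from -0.077 to 0.25 for Rpl13a, -0.73 to 0.28 for Rpl19 (161961_at), -0.24 to 0.16 for Rpl22 (92856_at), -0.10 to 0.067 for Rpl7a, -1.23 to 0.25 for Rps13, -0.15 to 0.20 for Rps24 (93121_at), -0.71 to 0.23 for Rps27 and -0.20 to 0.19 for Rps3. For utrophin they ran from -0.73 to 0.28 for Rpl22 (92856_at) and -0.57 to 0.15 for Rps28 (98085_f_at). They ran from -0.75 to 0.055 for Rpl13a (hDMD against wild-type) and from -0.0090 to 1.86 for Rps27 (hDMD mdx against mdx). Values near the floor limit the dim members, since their log2 differences depend on the pseudocount.

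Array brightness as a block, which pairs no mice by label, called 0 members in any of these tests.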
